A study of Drosophila melanogaster with 3 samples.

Results

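Chromatin immunoprecipitation with sequencing (ChIP-seq) was used to locate CG30403, an uncharacterised Drosophila melanogaster protein, in the genome, and the peaks described here are those at divergent promoters, where genes on opposite strands start close together. Of the 7827 peaks in the final reproducible ("optimal") list on build dm6, 1423 had their summit within 500 bp of annotated transcription start sites (TSSs) on both strands, belonging to different protein-coding genes, which is 18.2% (95% exact binomial interval 17.3 to 19.05). The other promoter peaks, 2178 summits with TSSs of 1 strand in reach, and the 4226 summits over 500 bp from any protein-coding TSS served as the comparison. The choice used the summit position and the annotation only, not the strength of the peak. With a window of 250 bp, 792 summits would count as divergent.

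The samples form 1 group of 3 biological replicates. All came from a transgenic fly line stably expressing CG30403 with enhanced green fluorescent protein fused to its C terminus, collected as whole embryos 0 to 24 hours old with males and females pooled, and the sheared chromatin (sonication, 200 to 800 bp) was pulled down through the tag with an anti-GFP antibody. The protein measured is therefore the tagged one, from 1 line. Every embryonic cell type and stage is mixed in a sample, so a promoter pair bound in a few cells and one bound weakly in all cells cannot be told apart, nor can binding of both promoters in the same cells and binding of each in different cells. Read depth is unknown, because the lists hold no read counts, and the intervals given cover the counting of peaks, genes or pairs only.

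Divergent, or head-to-head, gene pairs are frequent in the compact fly genome, and many of them join housekeeping genes that most cells use. The stretch between the start sites can serve both genes, and it is typically kept free of nucleosomes. Factors known to bind such promoters in flies include DREF, which recognises the DNA replication-related element with the core TATCGATA, and M1BP, which binds a motif that begins GGTCACAC.

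The sequence between the TSSs is shown for the 6 strongest head-to-head pairs that had a gap of 40 to 300 bp and no annotated exon inside the gap, because these are the stretches in which the strongest divergent summits lay or beside which they lay. Each is on the plus strand of the RefSeq Release 6 genome (the assembly of dm6), 5′ to 3′, and starts next to the TSS of the minus-strand gene, named first, and ends next to the TSS of the plus-strand gene. Capitals mark every match, on either strand, to CGATA, TATCGATA or TATAAA; GGTCACAC and CAGCTG were also searched and had no match.
Art3/mRpS10 (chr3R:15229409-15229664): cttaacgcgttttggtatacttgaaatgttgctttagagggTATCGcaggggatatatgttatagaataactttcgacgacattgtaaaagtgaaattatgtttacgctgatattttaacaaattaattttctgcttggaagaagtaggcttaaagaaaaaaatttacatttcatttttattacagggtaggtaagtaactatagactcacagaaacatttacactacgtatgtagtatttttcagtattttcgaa
Chro/Ssl1 (chr3L:22878985-22879088): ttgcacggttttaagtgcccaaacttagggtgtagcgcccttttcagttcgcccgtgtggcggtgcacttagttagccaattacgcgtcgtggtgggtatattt
Tcs5/CHMP2B (chr3L:5139396-5139618): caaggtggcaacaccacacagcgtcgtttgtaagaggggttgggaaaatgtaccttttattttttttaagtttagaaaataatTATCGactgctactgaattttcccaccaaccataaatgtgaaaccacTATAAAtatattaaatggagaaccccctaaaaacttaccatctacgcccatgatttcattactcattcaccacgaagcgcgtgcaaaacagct
Atat/Shc (chr3L:9426759-9427009): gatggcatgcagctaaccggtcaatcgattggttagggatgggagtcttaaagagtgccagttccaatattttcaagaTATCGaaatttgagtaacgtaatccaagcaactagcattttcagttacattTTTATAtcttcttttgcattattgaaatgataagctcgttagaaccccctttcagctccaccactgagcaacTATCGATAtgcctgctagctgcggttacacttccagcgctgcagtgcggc
Lon/PIG-F (chr3L:19612200-19612454): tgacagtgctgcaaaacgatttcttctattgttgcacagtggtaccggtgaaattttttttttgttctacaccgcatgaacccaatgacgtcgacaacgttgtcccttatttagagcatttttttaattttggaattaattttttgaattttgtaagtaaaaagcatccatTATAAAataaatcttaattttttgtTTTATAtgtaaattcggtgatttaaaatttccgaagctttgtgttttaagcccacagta
Mkk4/SLIRP2 (chr3R:8650797-8651083): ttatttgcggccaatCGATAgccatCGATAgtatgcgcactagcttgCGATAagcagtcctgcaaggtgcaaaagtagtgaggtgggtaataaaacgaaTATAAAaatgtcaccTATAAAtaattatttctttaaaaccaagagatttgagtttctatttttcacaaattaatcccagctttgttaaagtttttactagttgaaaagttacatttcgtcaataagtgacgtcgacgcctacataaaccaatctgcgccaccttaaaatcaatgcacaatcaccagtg

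The summit was at base 128 of the Art3/mRpS10 sequence, 104 of Tcs5/CHMP2B, 133 of Atat/Shc, 130 of Lon/PIG-F and 162 of Mkk4/SLIRP2, each close to the middle of the gap. The Chro/Ssl1 summit lay outside its gap, 93 bp inside the transcribed side of Chro. None of these 6 stretches held an E-box-like CAGCTG, and only Atat/Shc held a full TATCGATA, at base 202, while Mkk4/SLIRP2 had CGATA at bases 16, 26 and 48. The guanine and cytosine (GC) content of the 6 stretches ran from 30.1% for Art3/mRpS10 to 50.96% for Chro/Ssl1.

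The strongest divergent peak was that of Art3, a protein arginine methyltransferase, and mRpS10, a protein of the small mitochondrial ribosomal subunit. Its signal value, the authors' own score with no stated scale, was 3949, and it ranked 6th among all optimal peaks and 9, 7 and 6 in replicates 1, 2 and 3. The peak of Chro, a chromodomain protein of polytene interbands, and Ssl1, which belongs to the general transcription factor TFIIH, had a signal value of 3853 and ranked 8 in each of the 3 replicates. Both peaks were thus among the strongest 10 regions of every sample. The peak of Tcs5, which takes part in a tRNA modification, and CHMP2B, a subunit of the ESCRT-III membrane-remodelling complex, ranked 16, 11 and 11.

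CG5611/Mtl, with a Rac-type GTPase, ranked 19, 13 and 20, and mRpS23/CenG1A, a mitochondrial ribosomal protein and a GTPase-activating protein, ranked 50, 18 and 15. The gap of mRpS23/CenG1A was 492 bp, and its summit lay nearer to CenG1A than to mRpS23, which was 377 bp away. Pex11ab/CG8320, with a peroxisome division gene, ranked 28, 29 and 21, and mRpL23/CG9004 ranked 30, 24 and 24. Pdrg1/Pal1, the second of which encodes an enzyme of neuropeptide amidation, ranked 31, 32 and 31. All but mRpS23/CenG1A, which was weaker in replicate 1, had replicate ranks that spanned 8 or less. Hrd3, a part of the ubiquitin ligase of the endoplasmic reticulum, and PTPMT1, a mitochondrial phosphatase of cardiolipin synthesis, shared a peak that ranked 10, 23 and 53, a wider spread. Atat, a tubulin acetyltransferase, and Shc, an adaptor of receptor tyrosine kinases, ranked 42, 28 and 34. Lon, a mitochondrial protease, and PIG-F, an enzyme of glycosylphosphatidylinositol anchor synthesis, ranked 24, 30 and 40. Mkk4, a MAP kinase kinase, and SLIRP2 ranked 46, 39 and 44.

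The remaining peaks among the strongest 20 were Fbw5/CG9147, CG8892/CG34126, CG8372/CG8360, Fur1/Vps33B, CG13390/CG17294, Bdp1/CG6565, CG5757/CG5098 and CG32022/CG6511. Fur1 is a furin-type protease, Vps33B acts in vesicle trafficking and Bdp1 is a subunit of the RNA polymerase III initiation factor TFIIIB. The lowest replicate rank among all 20 was 109, for CG5757/CG5098 in replicate 1, where the other replicates had 49 and 59.

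**Figure D1:**
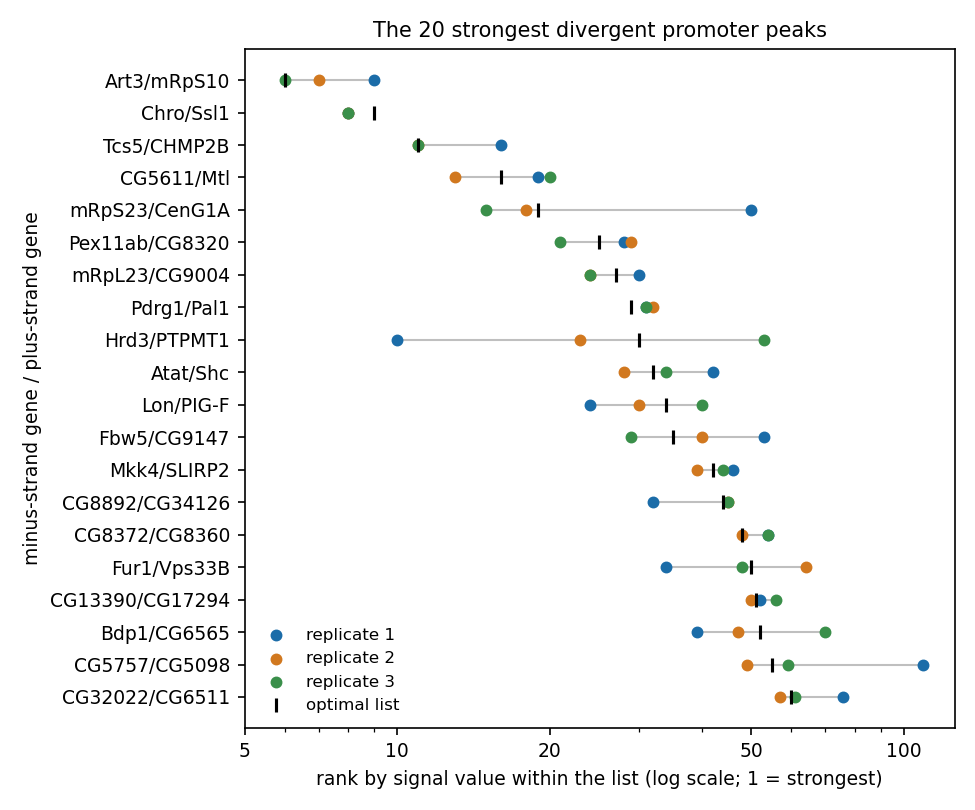
Rank by signal value (horizontal axis, log scale, 1 is the strongest region of a list) of the 20 strongest divergent promoter peaks in replicates 1, 2 and 3 (coloured points) and in the optimal list (black ticks), with a grey line from the lowest to the highest replicate rank. Chro/Ssl1 sat at rank 8 in all 3 replicates, where the points coincide, while Hrd3/PTPMT1 ran from 10 to 53 and mRpS23/CenG1A from 15 to 50.

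The nearest TSSs on the 2 strands were head-to-head at 1401 of the 1423 divergent peaks (98.5%), with the minus-strand start to the left of the plus-strand start. At the other 22 the transcripts overlapped at their starts. The distance between the head-to-head TSSs, the gap, had a median of 304 bp (quartiles 224 and 421 bp, range 1 to 831 bp). The summit lay between the TSSs at 1188 of the 1401 peaks, or 84.8% (interval 82.8 to 86.6%). In the replicates' own lists, each cut to its strongest 7827 regions, the share was 79.9%, 83.95% and 83.3%, a mean of 82.4% ± 2.19 (SD, n = 3). The summit was a median of 89 bp from the nearer TSS, 227 bp from the farther and 67 bp from the midpoint.

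Where the summit sat between the starts changed with the gap. For gaps of 201 to 250 bp it was a median of 39 bp from the midpoint and 80 bp from the nearer TSS, which is near the middle. For gaps of 251 to 300 bp it was still near the middle, 44.5 bp from the midpoint and 95 bp from the nearer TSS. For gaps of 301 to 500 bp the distance to the nearer TSS stayed between 91 and 110 bp. The distance to the midpoint grew from 75.75 to 118.5 bp. Summits placed evenly over a gap would also lie farther from its midpoint in wider gaps. The distances were not compared with such a placement, so they cannot be read as a preference for the middle or against it. At the narrowest gaps, up to 50 bp, 20.5% of 44 summits fell between the TSSs, and the rest lay inside the transcribed side of 1 of the genes. At gaps of 501 bp and over a summit in reach of both starts must lie between them, so those peaks carry no information on this point. Without them, 1002 of 1215 summits (82.5%, interval 80.2 to 84.6%) lay between the TSSs, and 79.65% ± 2.59 over the replicates (SD, n = 3). The 500 bp rule also favours positions between the starts at shorter gaps, and more so the wider the gap. The share that this rule alone would give was not computed, so neither the level of the share nor its rise with the gap can be read as a preference.

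**Figure D2:**
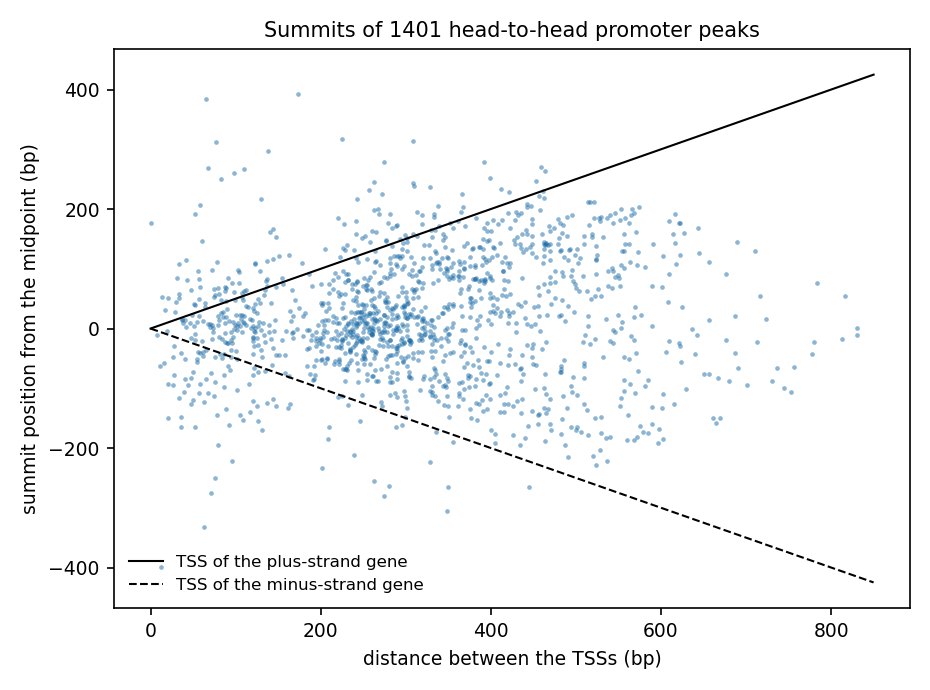
Position of the summit from the midpoint of the TSSs (vertical axis, bp) against the distance between the TSSs (horizontal axis, bp) for the 1401 head-to-head peaks of the optimal list, 1 point each. Points between the solid line (plus-strand TSS) and the dashed line (minus-strand TSS) are the 1188 summits between the starts; around gaps of 251 to 300 bp they gather near the midpoint (median distance 44.5 bp), and at 401 to 500 bp they spread to a median of 118.5 bp from it.

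Relative to the nearer TSS, with minus values upstream, head-to-head summits had a median position of -84 bp and single-gene promoter summits of -146 bp. The head-to-head median was nearer the TSS in each replicate, at -78, -91 and -72 bp against -160, -147 and -128.5 bp, and the values of the groups did not overlap. The mean difference was 64.8 ± 14.9 bp (SD, n = 3; two-sided exact sign-flip permutation test, p = 0.25). With 3 replicates 0.25 is the smallest p this test allows, so this test cannot pass 0.05 here; of the 26 tests made, 23 were at that value and their Benjamini-Hochberg adjusted p was 0.283. A nearer TSS was also more often in reach of a divergent summit by construction, because it has starts on both sides. Summits lay upstream of the nearer TSS at 84.3% of head-to-head and 86.9% of single-gene peaks.

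The 1423 peaks belonged to 1200 gene pairs, taking the nearest gene on each strand. A pair had 1 summit in 978 cases, 2 in 221 cases and 3 in 1 case, Vha100-2/Vti1b (named after its values were seen), which has more than 1 annotated start per gene. The smallest distance between summits of a pair was 199 bp and the median 203 bp, with 206 of the 222 at or under 250 bp. Of the 221 pairs with 2 summits, 173 had them nearer to different genes of the pair. Pairs with several summits had a median gap of 354 bp and pairs with 1 summit of 279.5 bp. In a gap of 354 bp, 2 summits at least 199 bp apart and both between the starts must lie on either side of the midpoint. The count of 173 therefore follows in part from the spacing and does not show 1 summit per promoter. The spacing near 200 bp was close to the shortest spacing that occurs, and the part of the peak caller in it was not tested.

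Of the 1423 peaks, 1345 had 1 gene on each strand in reach, 71 had 3 genes and 7 had 4 or more, up to 10. The 3 summits just inside the window were those of wde/CG12935, lin-52/CG15771 and CG9727/Zif, at 500, 499 and 495 bp from the farther TSS, with optimal ranks of 3454, 445 and 5435. Just outside, the farther TSS of RpS6 (with bys) lay at 501 bp, of Liprin-alpha (with homer) at 501 bp and of ATPsynbeta (with CG11076) at 502 bp, with ranks of 3834, 6078 and 6176.

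Overlapping starts were led by CG4741/Adck1, with replicate ranks of 180, 150 and 105, and CG31808/Cyt-c-d, a cytochrome c gene, with 254, 258 and 144. CG5846/CG4658 ranked 342, 267 and 244. Gcn5, the histone acetyltransferase of the SAGA complex, and ver, a telomere-capping gene, ranked 550, 621 and 531, and Daao1/CG7220 ranked 729, 1017 and 790. At the 22 overlapping pairs 6 summits (27.3%, interval 10.7 to 50.2%) lay between the starts.

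Divergent peaks were stronger than other promoter peaks in each replicate. The median rank of the replicate's region at a divergent peak was 2923, 2719 and 3087 in replicates 1, 2 and 3, against 3817, 3546.5 and 3637.5 at single-gene promoter peaks. The values of the groups did not overlap, and the mean difference was -757 ± 182 ranks (SD, n = 3; exact sign-flip permutation test, p = 0.25, the smallest possible). The difference was -293 ranks among the stronger 50% of optimal peaks and -1252 with a window of 250 bp. Median signal values in the optimal list were 311.5 and 266.1. Among promoter peaks of both kinds, divergent peaks made up 46.9% ± 4.43 (SD, n = 3) of those in the strongest 100 regions of a replicate and 33.1% ± 0.350 of those ranked 4001 to 7827. Of the strongest 100 optimal peaks of any kind, 36 were divergent.

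**Figure D3:**
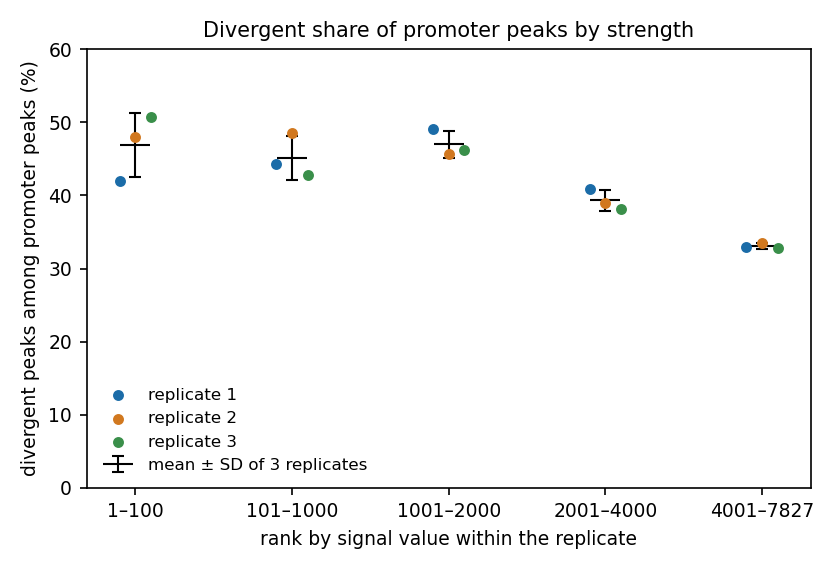
Divergent peaks as a share of promoter peaks (vertical axis, %) in 5 bands of rank by signal value (horizontal axis) within each replicate; coloured points are replicates 1, 2 and 3, and black marks the mean ± SD. The share was 46.9% ± 4.43 in the strongest 100 regions and 33.1% ± 0.350 at ranks 4001 to 7827, with no overlap between the replicates of these bands.

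Of the 1423 divergent peaks, 1187 were overlapped by a region of the equally long list of every replicate. That is 83.4% (interval 81.4 to 85.3%), beside 74.0% of all optimal peaks and 76.3% of single-gene promoter peaks. How much of the higher share went with strength was not computed. The share found was lowest among the weakest peaks of both kinds. Among peaks of optimal rank 1 to 1000 it was 99.3% for divergent and 99.4% for single-gene peaks, at ranks 2001 to 4000 it was 95.7% and 94.5%, and only at ranks 4001 to 7827 did the shares part, at 57.3% of 508 and 50.2% of 964. By replicate, 88.97%, 95.85% and 94.3% of divergent peaks were found, so replicate 1 held the fewest. The excess over single-gene peaks in the share found in every replicate, 7.11 percentage points, was 2.57 points without replicate 1, 2.92 points when summits had to lie within 100 bp, where the replicates no longer differed in 1 direction (exact sign-flip permutation test, p = 0.75), 12.4 points with replicate lists of 4000 regions and 0.847 points among the stronger 50% of peaks. In the full replicate lists, which reach far into weak regions, 19, 3 and 4 divergent peaks had no overlapping region. Both the optimal list and these ranks come from the same 3 samples, so the overlap does not measure reproducibility in new material.

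Summit positions moved by a median of 54 bp over the 3 replicates at divergent peaks and 51 bp at single-gene promoter peaks. The median offset from the optimal summit was 26, 13 and 17 bp by replicate, and differed from that of single-gene peaks by 0.333 ± 1.15 bp (SD, n = 3; exact sign-flip permutation test, p = 1). At Art3/mRpS10 the replicate summits lay within 6 bp, at Atat/Shc within 1 bp and at CG5757/CG5098 within 59 bp.

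Among the divergent peaks in the strongest 1000 that had ranks in all replicates, M1BP/CG8202 differed most, with ranks of 330, 380 and 4854. M1BP is itself a promoter-binding zinc-finger factor, and the region matched to its peak ranked low in replicate 3 alone. FucTB/scat ranked 1611, 136 and 1014 and CG1602/PIG-G ranked 57, 53 and 376, so the library that stood apart was not the same in each case. These 3 had rank ranges of 3.88, 3.57 and 2.83 on the log2 scale, beside a median of 0.69 over 301 peaks. Their replicate summits spanned 102, 172 and 47 bp, beside a median of 54 bp over divergent peaks. Some of these ranks may therefore be those of neighbouring regions and not of the same peak. The 5 weakest divergent peaks ranked between 7721 and 7820 of 7827.

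Read from the annotation, the genome had 2667 head-to-head pairs with a gap of up to 1000 bp, and 1284 of them had an optimal summit within 500 bp of both TSSs, or 48.1% (interval 46.2 to 50.1%). Of 8804 single-gene promoters, 1481 had a summit within 500 bp, or 16.8%. In the replicates the shares were 44.9%, 48.1% and 47.2% for pairs and 15.7%, 16.9% and 17.6% for single-gene promoters, a difference of 30.0 ± 1.09 percentage points (SD, n = 3; exact sign-flip permutation test, p = 0.25). The groups lay far apart in every replicate. The rule for pairs is the stricter in that both starts must be in reach. A pair, however, joins the promoters of different genes, and a summit at either of them can count for the pair. The units are therefore unlike, and the share that this alone would give was not computed. The size of the difference thus cannot be read as a preference for pairs. With a window of 250 bp the difference was 18.4 points. Which of these genes are used in the embryo was not measured, and its part in the difference was not tested. Of the 1383 pairs with no optimal summit, 538 (38.9%) had a summit in the pooled list, which includes background regions, and 1025 pairs had a summit in every replicate's list.

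The share of pairs bound depended on the gap. It was highest for gaps of 201 to 400 bp, at 62.95%, 65.2% and 65.5% in the replicates, a mean of 64.5% ± 1.39 (SD, n = 3). Other gaps of up to 500 bp had a mean of 46.2% ± 3.12. The difference was 18.4 ± 1.74 percentage points (exact sign-flip permutation test, p = 0.25), with no overlap between the groups. The band was chosen after these values were seen. In the optimal list the shares were 36.5% up to 50 bp, 49.6% at 51 to 100 bp, 49.0% at 101 to 150 bp and 40.3% at 151 to 200 bp, and then 66.1% at 201 to 250 bp. Above the band the share was 58.8% at 401 to 500 bp and 48.1% at 501 to 600 bp, where fewer positions lie within 500 bp of both starts. Peaks in gaps of 201 to 400 bp were also the stronger, with a mean of the replicates' median ranks of 2319 ± 205 against 3448 ± 312 for other gaps, a difference of -1129 ± 114 (SD, n = 3; exact sign-flip permutation test, p = 0.25).

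**Figure D4:**
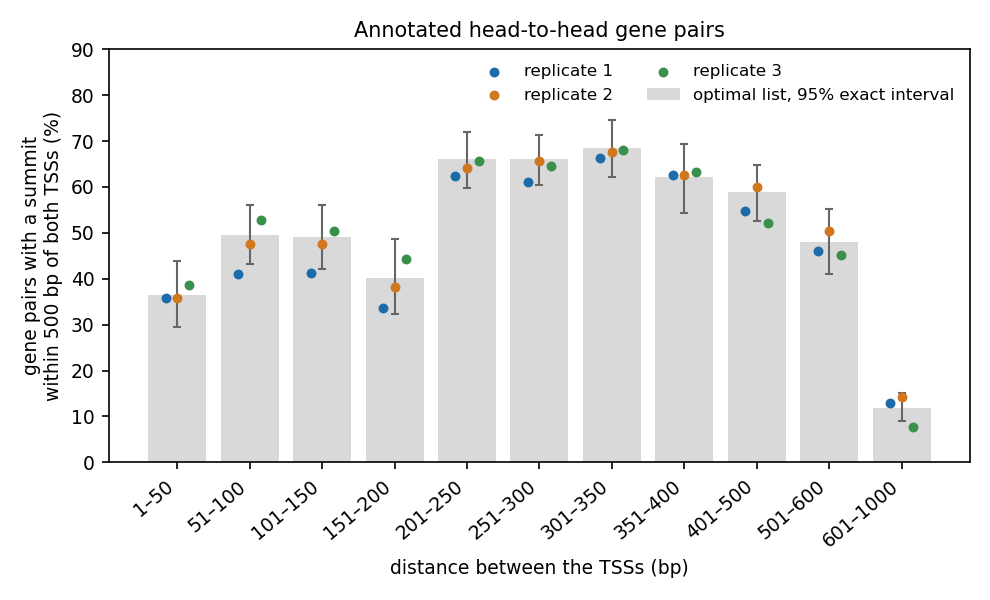
Share of annotated head-to-head gene pairs with a summit within 500 bp of both TSSs (vertical axis, %) by the distance between the TSSs (horizontal axis, bp); bars are the optimal list with 95% exact binomial intervals, coloured points the 3 replicates. The 4 bins from 201 to 400 bp lie between 62.1% and 68.6% in the optimal list, and the bin from 151 to 200 bp lies at 40.3%.

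Genes of the basic cell machinery were frequent at divergent peaks, and this was counted in 14 gene lists. Over all 13945 protein-coding genes, 2469 (17.7%) had a TSS within 500 bp of a divergent peak, and they had a median best rank of 2473. The lists hold genes that often sit in head-to-head pairs, so each is also set beside 48.7%, the share of all genes in annotated pairs whose pair had an optimal summit.

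Mitochondrial ribosomal proteins had 40 of 73 genes at divergent peaks, or 54.8% (54.8% ± 4.94 over the replicates, SD, n = 3), and a median best rank of 2407.5. Of their 45 genes with any promoter peak, 40 (88.9%) were at a divergent one, beside 58.7% of all genes with a promoter peak. Head-to-head pairs held 58 of the 73 (79.45%, beside 36.2% of all genes), and 69.0% of those were bound. The list was led by mRpS10, mRpS23 and mRpL23, whose ranks are given above. Cytosolic ribosomal proteins had 39 of 93 at divergent peaks, or 41.9% (replicates 40.9% ± 3.23), with a median best rank of 1587 and 69.6% of those in pairs bound, and 34 more at single-gene promoter peaks alone. Of the cytosolic genes with any promoter peak, 53.4% were thus at a divergent one, below the 58.7% of all genes. This list was drawn by gene symbols, and the 39 include RpLP0-like, which is named after RpLP0 and may not be a ribosomal protein. RpL34b/CG8132 ranked 218, 181 and 153 in the replicates, RpS27/Nup37, with a nuclear pore gene, 399, 279 and 303, and Ripalpha/RpL7 488, 330 and 281.

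In protein synthesis, 17 of 35 aminoacyl-tRNA synthetases, the enzymes that load tRNAs with amino acids, were at divergent peaks, or 48.6% (replicates 42.9% ± 5.71, SD, n = 3), with a median best rank of 3093, and 70.8% of the 24 in pairs were bound. SerRS/CG17260 had a gap of 8 bp and ranked 246, 163 and 210. GluProRS/AP-1sigma, with a clathrin adaptor gene, ranked 217, 251 and 251, and Hem/IleRS ranked 237, 272 and 672. Translation factors had 11 of 52, or 21.2%, beside 17.7% of all genes; over the replicates the means were 19.2% ± 3.33 and 17.2% ± 0.602. Their median best rank was 3770, and 42.3% of those in pairs were bound. Of their 26 genes with any promoter peak, 42.3% were at a divergent one, below the 58.7% of all genes with a promoter peak. The strongest was eIF4EHP/CG18428, at 91, 69 and 146; eIF4EHP is a cap-binding repressor of translation. RpL28/eIF1 ranked 379, 814 and 650 and eIF3h/senju 673, 1120 and 654.

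In transcription, 22 of 53 Mediator and general RNA polymerase II factors were at divergent peaks, or 41.5% (replicates 39.6% ± 1.89, SD, n = 3), with a median best rank of 1616.5, and 56.4% of those in pairs were bound. After Chro/Ssl1 came elm/MED27, with 302, 133 and 217, and MED30/Rev1, with a translesion DNA polymerase gene, at 286, 357 and 214. RNA polymerase subunits had 13 of 31 in the optimal list and 41.9% in each replicate. Their median best rank was 3339, and 65% of the 20 in pairs were bound. 140up/Polr2B ranked 316, 176 and 412, CG11247/Polr2H 890, 238 and 271 and CG10584/Polr3E 251, 295 and 1381, so the last was weaker in replicate 3. Architectural and promoter-binding chromatin proteins had 7 of 15: Chro, Cp190, pzg, M1BP, Dref, pita and su(Hw). Their median best rank was 788, and 60% of the 10 in pairs were bound. Of the 12 listed genes with any promoter peak, 58.3% were at a divergent one, beside 58.7% of all genes with a promoter peak. The list also names chb, a gene of a microtubule-binding protein and not of a chromatin protein. The peak of Cp190, a cofactor of insulator proteins, and CG4338 ranked 97, 108 and 93, and CG12974/pzg ranked 843, 366 and 1106.

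Among other complexes, spliceosome genes had 17 of 30, or 56.7% (replicates 50% ± 10, SD, n = 3), with a median best rank of 3947 and 63.0% of those in pairs bound. They were led by Sf3b6/Tnpo, with a nuclear import receptor, at 276, 385 and 579. U2af50/PIG-Q ranked 1361, 714 and 1831 and SNRPG/mthl1 1176, 962 and 1297. The spliceosome share varied most by replicate, at 50%, 60% and 40%, apart from the exosome list. That list, drawn by gene symbols, had 7 of 13, with 30.8%, 53.85% and 53.85% by replicate. Its median best rank was 1328, and 63.6% of the 11 in pairs were bound. Its strongest, Rrp1/gammaTub23C at 143, 188 and 308, is an endonuclease of DNA repair and not a subunit of the RNA exosome. Rrp5, counted through Rrp5/Dis3, is a factor of ribosomal RNA processing and no exosome subunit either. Csl4/Nup160 ranked 1115, 1165 and 731 and Rrp6/CG33331 1269, 923 and 1392, and both Csl4 and Rrp6 act in the exosome.

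Proteasome subunits had 16 of 48, or 33.3% (replicates 31.25% ± 2.08), with a median best rank of 3792.5 and 61.5% of those in pairs bound. They were led by Hat1/Rpn5, a histone acetyltransferase and a lid subunit, at 238, 335 and 406. l(2)37Bb/Rpn3 ranked 1074, 779 and 649 and Rpn6/ave 1675, 1242 and 1456. Respiratory chain and ATP synthase genes had 22 of 87, or 25.3% (replicates 25.3% ± 1.99), with a median best rank of 1926.5, and 50% of those in pairs were bound, near the 48.7% of all pair genes. TppII/ND-MWFE ranked 423, 276 and 315, ND-ASHI/Fum1, a complex I subunit and fumarase, 639, 609 and 438, and corolla/ND-24 703, 543 and 639.

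Lists of genes used in special tissues were nearly absent from divergent peaks. Of 179 chemosensory receptor genes 1 was at a divergent peak, Ir60e with CG13585, at ranks of 3827, 8682 and 3094. The cuticle list, drawn by a symbol pattern, had 1 of 71, and that gene is Cpr, the reductase that serves cytochrome P450 enzymes and not a cuticle protein; Pez/Cpr ranked 7064, 5930 and 3401. Of 8 Hox genes none was at a divergent peak, which allows a share of up to 36.9% (exact interval). None of the 8 is in a head-to-head pair, so this count says little about Hox promoters. A single-gene promoter peak was present at 2 of the 8 (25%), beside any promoter peak at 30.15% of all genes. Of the 26 chemosensory genes in annotated pairs 1 had its pair bound (3.85%), beside the 48.7% of all pair genes, and the same gene was the only one of the 179 with any promoter peak (0.559%, beside 30.15% of all genes). Of the 5 cuticle-list genes in pairs 1 was bound. CG30403 itself (FBgn0050403) had no optimal summit within 500 bp and is not in a head-to-head pair.

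**Figure D5:**
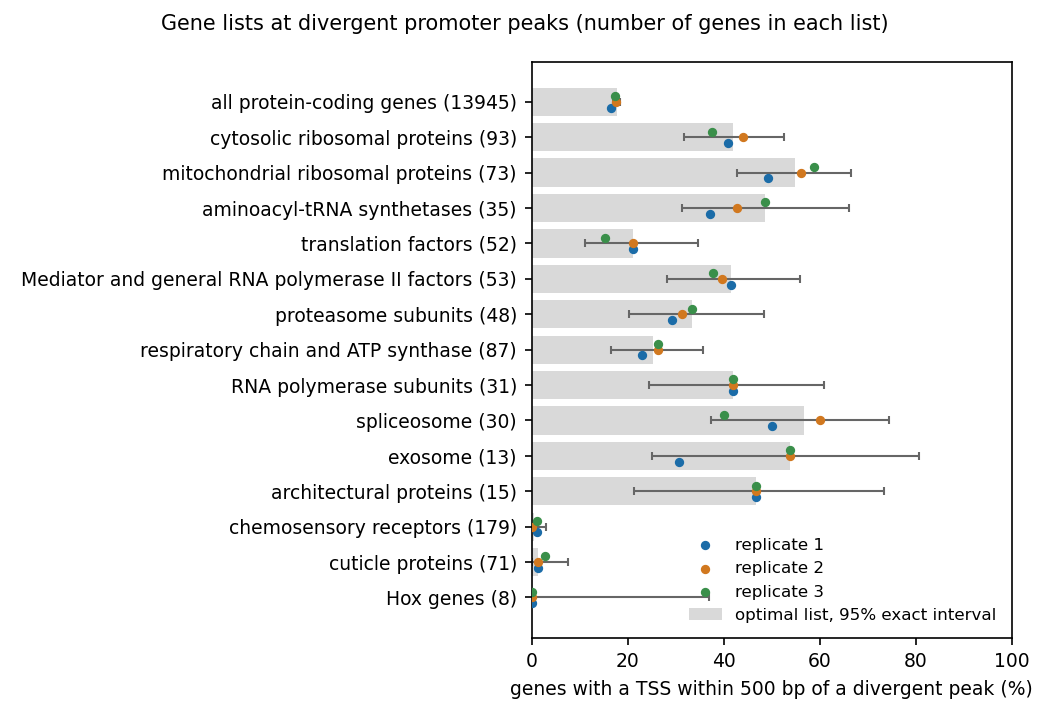
Share of the genes of each list with a TSS within 500 bp of a divergent peak (horizontal axis, %); bars are the optimal list with 95% exact binomial intervals, coloured points the 3 replicates, and the number of genes in the list stands in brackets. All protein-coding genes lie at 17.7%, mitochondrial ribosomal proteins at 54.8%, translation factors at 21.2% and chemosensory receptors at 0.559%.

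At 8 divergent peaks, of 7 gene pairs, both nearest genes were in the lists. After Chro/Ssl1 and RpL28/eIF1 these included Dref/RpL13, in which the gene of the promoter factor DREF faces a ribosomal protein gene 84 bp away; it ranked 1254, 1864 and 1467. mRpL39/Prosbeta2, a mitochondrial ribosomal protein and a proteasome core subunit, ranked 3179, 2553 and 2512. su(Hw)/Polr2I, an insulator protein and a subunit of RNA polymerase II, ranked 3454, 2369 and 6964, lowest in replicate 3.

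The DNA under divergent summits was poorer in G and C than at TSSs, and so was that under the other peaks. In windows of 50 bp to either side the median GC content was 31.7%, beside 34.7% at single-gene promoter summits, 30.7% at summits away from promoters, 43.6% at all protein-coding TSSs, and 39.6% and 41.6% at positions 200 bp to the left and right of the same summits. Among annotated pairs with gaps of 101 to 500 bp, midpoints of the 940 bound pairs had 27.7% and of the 626 unbound pairs 32.7%. Bound and unbound pairs also differed in their gaps, and the part of this was not tested. The core of the DREF motif, TATCGATA, was present within 50 bp at 74 of 1423 divergent summits (5.20%), 3.99% of single-gene promoter summits, 0.284% of summits away from promoters and 4.48% of all TSSs; over the replicates divergent summits had 5.37% ± 0.95 (SD, n = 3). Within 25 bp the share at divergent summits was 2.67%, and within 100 bp 11.6%. The shorter CGATA, which lies inside it, was present within 50 bp at 28.1% of divergent, 22.8% of single-gene and 9.84% of other summits and at 23.6% of all TSSs. GGTCACAC was present at 2.88% of divergent, 1.65% of single-gene and 0.166% of other summits, all below the 4.68% of all TSSs. CAGCTG was present at 5.69%, 4.45% and 2.18% of these summits, also below the 8.77% of all TSSs. AAAATAT was present at 18.8% of divergent summits, 15.3% of single-gene summits, 17.0% of summits away from promoters and 7.14% of TSSs, and TATAAA at 24.2%, 20.8%, 24.5% and 15.5%, so TATAAA was as frequent away from promoters as at divergent summits. GAGAG, contained in sites of the GAGA factor, was rarer at divergent than at single-gene summits, at 6.05% ± 0.632 and 10.04% ± 0.709 over the replicates, a difference of -3.99 ± 0.133 percentage points (exact sign-flip permutation test, p = 0.25). Matches were counted on both strands, describe letters only, and move with base composition.

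Within the divergent peaks the sequence differed with strength. Sorted by signal value in each replicate, the members in the uppermost of 3 equal parts had TATCGATA at 2.41% ± 0.381 of summits and those in the lowest part at 7.23% ± 1.15 (SD, n = 3), a difference of -4.82 ± 1.15 percentage points. CGATA was present at 17.9% ± 1.22 and 37.1% ± 5.82, and GGTCACAC, the M1BP motif, at 0.50% ± 0.338 and 5.04% ± 0.210. Each of these was rarer in the uppermost part in all 3 replicates, with no overlap between the groups (exact sign-flip permutation test, p = 0.25 each). The AT-only words went the other way, with TATAAA at 27.7% ± 3.30 and 18.6% ± 1.17 and AAAATAT at 21.8% ± 2.12 and 14.8% ± 0.991. Median GC content was 28.7% ± 0.990 in the uppermost and 36.6% ± 0.990 in the lowest part, so composition moved with both sets of words, and its part in these differences was not tested.

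Divergent peaks were spread over the major arms. 3R had the most, 414, which was 22.2% of its optimal peaks, and 55.9% of its 683 annotated pairs were bound (54.0% ± 1.78 over the replicates, SD, n = 3). The X had 201, or 13.2% of its peaks, and 46.4% of its 403 pairs were bound (43.7% ± 2.21). The arms 2L, 2R and 3L had 44.6%, 42.9% and 48.8% of their pairs bound, and chromosome 4 had 2 of 11. The share on 3R was above that of each other arm in every replicate.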

How the data were processed

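Transcription factor ChIP-seq of tagged CG30403 was analysed from the peak lists deposited by the authors on build dm6: 1 list per replicate (29373, 30000 and 30000 regions, with background regions), 1 pooled list (30000) and the optimal list (7827). The group lists were called on pooled replicates, per the deposited text notes; the peak caller and its settings were not stated in the sources used. The deposited signal value is a score, used only for ranks within a list. The control and the dm3 lists were not used here.

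Genes came from Ensembl release 115 (13945 protein-coding genes, 19607 TSSs on the major arms); of 13920 genes matched by symbol to RefSeq Release 6, 13919 had the same coordinates. Replicate lists were cut to 7827 regions, an overlap of 1 bp counted as found, and a replicate's rank is that of the overlapping region with the nearest summit, which where regions overlap can be a neighbour's. Annotated pairs had gaps up to 1000 bp. Tests were two-sided exact sign-flip permutation tests over the 3 replicates. Motifs (11) were searched on both strands within 50 bp.

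Named pairs were the 20 strongest, the 3 strongest of each list, the 5 strongest with both genes listed, the 5 strongest overlapping ones, the 3 with the most different replicate ranks in the strongest 1000, those next to the 500 bp limit, and CG30403. Members, lists and motifs were chosen with earlier results of these data known. The functions were tested on simulated data. Python 3.11.15, numpy 2.4.6, pandas 2.3.3 and scipy 1.17.1 were used.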

Additional observations from a re-analysis of the deposited data

How the results depend on the processing

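The alternatives were windows of 250 and 1000 bp, 1 canonical TSS per gene, 1 summit per merged region, the stronger 50% of peaks, stricter matching, shorter lists, other motif windows and leaving out each replicate. The divergent share of 18.2% became 10.1% with 250 bp, 21.7% with 1000 bp, 15.9% with canonical TSSs, 17.0% with merged regions and 23.0% among the stronger 50%. The number of divergent peaks was 792 with 250 bp and 901 among the stronger 50%. Summits between the TSSs rose to 87.1% with merged regions. The share with TATCGATA was 3.77% among the stronger 50%, 2.67% within 25 bp and 11.6% within 100 bp. The 3 bp excess in summit spread was -2 bp with 250 bp, and 1 to 3 bp when 1 replicate was left out.

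The differences in rank, in the share found in every replicate, in bound pairs and between gaps kept their direction. The differences in TSS position, GAGAG and motifs by strength were not recomputed. The rank difference ran from -1252 (250 bp) to -293 (stronger 50%), and from -861 to -689 without 1 replicate. The excess found in every replicate, 7.11 points, was 0.847 among the stronger 50%, 2.92 with summits within 100 bp, 12.4 with lists of 4000 regions and 2.57 to 6.86 without 1 replicate, lowest without replicate 1. The excess of bound pairs was 18.4 points with 250 bp and 29.4 to 30.4 without 1 replicate. The gap difference, with alternatives chosen after seeing the data, was 17.4 to 20.8 points. The window and the annotation thus set how many peaks count as divergent. No paired analysis was possible between groups because there is 1 group; differences were taken within each replicate. The main limits are the number of replicates, which sets the smallest p, unknown depth, and annotated TSSs that may not be those used in embryos.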
